A study of Homo sapiens with 6 samples.

Results

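MAP kinase feedback regulators are genes whose products act on, and mostly switch off, the growth factor and stress kinase pathways that turn them on. Here they are 9 genes: the dual specificity phosphatases DUSP1, DUSP4, DUSP5 and DUSP6, the Sprouty genes SPRY2 and SPRY4, the Sprouty-related genes SPRED1 and SPRED2, and the pseudokinase gene TRIB1. They were chosen by their role and symbol, with earlier results of these data known, and every probe that the platform annotation names for one of them was taken, which gave 14 of the 47323 probes on the array and 9 of the 20046 genes with a probe. HEK293 cells, an established line from human embryonic kidney, were left untreated (0 min) or were given 50 mM sodium salicylate for 30 or 60 min. Each group has 2 arrays of total RNA, 6 in all, so n = 2 arrays per group throughout. The labels name no mock-treated or other-salt sample and do not say whether the arrays of a group came from separate cultures. An effect of salicylate cannot be told apart from one of handling, of time or of the sodium added with it. The p-values below rest on the spread within these pairs of arrays, which may be only technical.

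In this pathway a growth factor receptor activates RAS, which starts a kinase relay from RAF through MEK to the MAP kinase ERK. ERK in turn raises transcription of its own inhibitors. DUSP phosphatases remove the activating phosphates from MAP kinases, Sprouty and SPRED proteins block the relay at the level of RAS and RAF, and TRIB1 binds MEK1 and also brings the ubiquitin ligase COP1 to C/EBP transcription factors. The transcripts of several of these genes are short-lived, and in cell lines their levels are widely used as readouts of ERK activity.

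Each of the 6 arrays had 20726 to 21740 detected probes, with a median intensity of 143.1 to 147.6. Of 8 HEK293 line markers with a probe, 7 were detected, among them VIM and NEFM, and PAX2 was not above background. None of 5 endothelial markers was detected, nor were 6 of 7 blood markers with a probe, PTPRC among them, or 6 of 7 kidney tubule markers. The exceptions were CD14 and LRP2. Of 5 hepatocyte markers 3 were detected (ALB, APOA1 and SERPINA1), with a summed normalized intensity of 179.5 to 185.6 in untreated arrays, 186.2 to 197.9 at 30 min and 209.1 to 241.8 at 60 min. None of these 3 passed the test at 60 min. LRP2 had 167.9 to 169.3 in untreated arrays, 146.2 to 154.7 at 30 min and 125.3 to 140.9 at 60 min, and did not pass the test (adjusted p = 0.0689). At 60 min CD14 was lower by 0.31 on the log2 scale (adjusted p = 0.0428) and 1 of 4 detected fibroblast markers, LUM, was higher by 0.65 (adjusted p = 0.0314). The summed normalized intensity of those 4 markers was 333.0 to 358.7 in untreated arrays, 327.6 to 343.8 at 30 min and 409.5 to 413.0 at 60 min. NEFL and KRT8 of the line markers were higher by 0.33 and 0.26 (adjusted p = 0.00814 and 0.00888). The part of these shifts in the results below was not tested. In bulk RNA, fewer cells with a transcript and less of it per cell cannot be told apart.

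Of the 14 probes, 8 were detected (detection p-value under 0.05 on at least 2 of the 6 arrays), 1 for each gene except DUSP4. The detected probe stands for its gene below, as a log2 intensity after background correction and quantile normalization. DUSP4, a phosphatase of the nucleus, was not above background on any array with either of its probes. The detection p-values of these probes lay between 0.736 and 0.991 (ILMN_1808391) and between 0.299 and 0.779 (ILMN_2283398), so DUSP4 has no measured change. The second DUSP6 probe, ILMN_1677466, was not detected on any array either (detection p-values from 0.292 to 0.738), and neither were 3 of the 4 SPRY4 probes (lowest detection p-values 0.105, 0.184 and 0.286). The detected SPRY4 probe, ILMN_2086105, was dim. Its detection p-values were 0.0013 and 0.00519 in untreated arrays and 0.0026 on both 30 min arrays. At 60 min they were 0.0545 and 0.0286, so 1 of the 2 arrays still detected it.

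**Figure D1:**
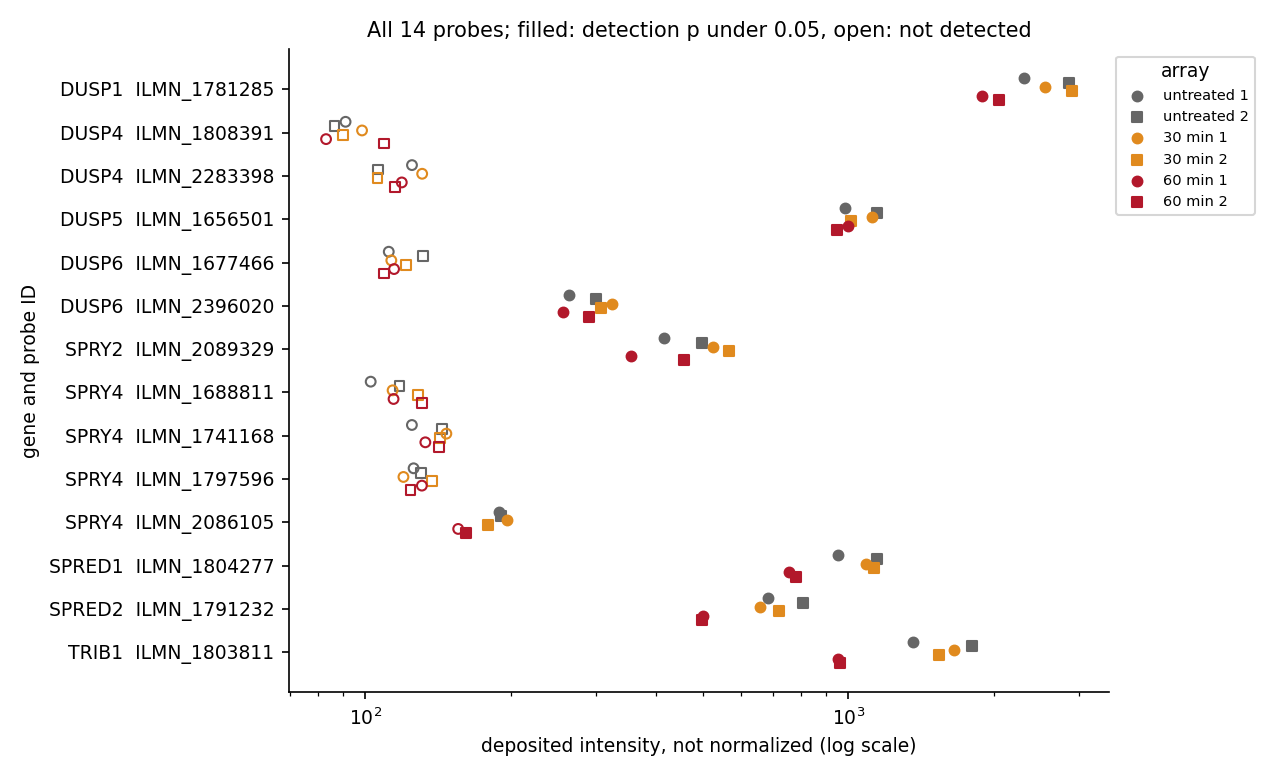
Deposited intensity, not normalized and on a log axis, of all 14 probes on each array. Filled symbols have a detection p-value under 0.05, and the 2 DUSP4 probes, 1 DUSP6 probe and 3 SPRY4 probes are open on every array.

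After 60 min of salicylate, 5 of the 8 measured genes fell against untreated cells and 0 rose. TRIB1 was lower by 1.57-fold, SPRED2 by 1.48-fold, SPRED1 by 1.29-fold and DUSP1 by 1.22-fold. The dim SPRY4 probe was lower by 0.62 on the log2 scale, or by 0.26 without background correction, with 1 of the 2 arrays at 60 min not above background. DUSP5, DUSP6 and SPRY2 did not pass the test. The test was limma on all 12547 genes measured, with Benjamini-Hochberg adjustment over all of them and a threshold of 0.05. Over all those genes 12.3% fell and 10.5% rose at 60 min. The median log2 difference was -0.33 over the 8 genes and -0.01 over all genes. At 30 min none of the 8 passed. DUSP1 and SPRY4 were not called at 60 min when either control array was left out. Fewer of all genes were called then too.

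Promoter sequence is shown for the 4 of these 5 genes that had an entry among the RefSeq promoter windows of build GRCh38.p14. This is the stretch of DNA in which early response elements would be looked for. Each line holds the 250 bases before the annotated start, 5′ to 3′ on the strand of the gene. Capitals mark the cyclic AMP response element TGACGTCA or its partial site TGACG, searched on both strands, and the TATA box TATAAA. The windows are chr5:172771196-172771445 (minus strand) for DUSP1, chr5:142324248-142324497 (minus strand) for SPRY4, chr15:38252586-38252835 (plus strand) for SPRED1 and chr2:65432600-65432849 (minus strand), the first of 2 windows listed, for SPRED2.
DUSP1: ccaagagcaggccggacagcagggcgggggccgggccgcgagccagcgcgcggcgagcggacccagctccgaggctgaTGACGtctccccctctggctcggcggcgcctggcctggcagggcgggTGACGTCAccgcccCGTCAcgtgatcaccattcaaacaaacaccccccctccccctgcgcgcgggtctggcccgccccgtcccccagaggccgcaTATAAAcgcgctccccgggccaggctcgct
SPRY4: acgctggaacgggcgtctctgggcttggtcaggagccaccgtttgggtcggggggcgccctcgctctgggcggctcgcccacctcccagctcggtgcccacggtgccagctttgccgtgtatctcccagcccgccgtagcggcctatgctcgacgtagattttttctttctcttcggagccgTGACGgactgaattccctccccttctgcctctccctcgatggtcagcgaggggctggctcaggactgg
SPRED1: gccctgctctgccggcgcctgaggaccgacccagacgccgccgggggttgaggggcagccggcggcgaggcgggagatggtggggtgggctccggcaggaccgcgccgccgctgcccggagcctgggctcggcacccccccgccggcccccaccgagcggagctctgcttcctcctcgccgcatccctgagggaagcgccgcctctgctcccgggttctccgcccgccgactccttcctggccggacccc
SPRED2: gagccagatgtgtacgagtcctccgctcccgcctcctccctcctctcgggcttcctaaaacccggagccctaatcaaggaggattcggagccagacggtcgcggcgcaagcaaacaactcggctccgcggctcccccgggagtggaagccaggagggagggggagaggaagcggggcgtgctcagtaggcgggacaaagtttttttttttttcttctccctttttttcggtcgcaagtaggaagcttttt

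The DUSP1 window held 1 full TGACGTCA, at positions -125 to -118 counted back from the start, and 4 matches to TGACG, 2 of them inside the full site. It also held TATAAA at -30 to -25. SPRY4 had 1 match to TGACG, at -68 to -64, and neither other motif. SPRED1 and the SPRED2 window shown had no match to any of the 3, while the other SPRED2 window had TATAAA at -31 to -26. Of the 2 genes with an entry that did not pass the test at 60 min, DUSP6 had no match, and SPRY2 had 1 match to TGACG in 1 of its 3 windows. The CArG box, which binds serum response factor, was found in none of the windows of these 6 genes. Among all 35116 promoter windows cut to the same length, 1.65% held TGACGTCA, 21.2% TGACG, 10.7% TATAAA and 1.16% a CArG box. The ETS site CCGGAA, the AP-1 site and the GC box GGGCGG were also searched. CCGGAA matched only in SPRY2, at -142 to -137 (14.5% of all windows). The GC box matched in DUSP1, SPRY4, SPRY2 and SPRED1 (42.6%), and the AP-1 site in none of the 6 genes (6.57%). A match describes these letters and is not evidence of a bound site.

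DUSP1, a nuclear phosphatase that acts on p38, JNK and ERK, had log2 intensities of 11.24 and 11.24 in untreated arrays, 11.22 and 11.42 at 30 min, and 10.92 and 10.98 at 60 min. Both 60 min arrays lay below all 4 others. DUSP1 fell by 0.29 on the log2 scale at 60 min against untreated (SE 0.0709, adjusted p = 0.0126). The adjusted p was above the threshold when control replicate 1 (0.0751) or control replicate 2 (0.0803) was left out and when the variance model had no intensity trend (0.0825, range 0.00857 to 0.0825 over 15 settings), with the value between -0.37 and -0.26. Against 30 min it fell by 0.37 (adjusted p = 0.00416).

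DUSP5, a nuclear phosphatase selective for ERK, stayed within a narrow band on all arrays. Its log2 intensities were 9.90 and 9.83 in untreated arrays, 9.93 and 9.78 at 30 min, and 9.93 and 9.80 at 60 min. The 3 groups overlapped. The log2 difference at 60 min against untreated was -0.001 with a 95% interval from -0.17 to 0.17. Of all genes tested, 51.1% had a lower value.

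DUSP6, the cytoplasmic ERK phosphatase, had log2 intensities of 7.42 and 7.41 in untreated arrays, 7.73 and 7.63 at 30 min, and 7.30 and 7.60 at 60 min. Both 30 min arrays were above all the others, and the 60 min arrays lay on either side of the untreated ones. Its difference at 30 min against untreated was 0.26 (95% interval -0.02 to 0.54, adjusted p = 0.485), and that at 60 min was 0.03 (-0.24 to 0.31, adjusted p = 0.879).

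The Sprouty gene SPRY2 had a similar order of groups. Its product is recruited to activated receptors and holds back RAS signalling. SPRY2 had log2 intensities of 8.40 and 8.42 in untreated arrays, 8.67 and 8.80 at 30 min, and 8.04 and 8.52 at 60 min. The 30 min arrays were the highest of the 6, while the 60 min arrays differed from each other by more than from the untreated ones, with an SD of 0.337 against 0.0175 in untreated arrays. At 30 min against untreated the difference was 0.32 ± 0.13 (SE), with an unadjusted p of 0.0317 and an adjusted p of 0.389. At 60 min against untreated it was -0.13 (95% interval -0.42 to 0.16, adjusted p = 0.537). Without 60 min replicate 2 this became -0.37 and passed the test (adjusted p = 0.036), and without 60 min replicate 1 it was 0.11 (adjusted p from 0.036 to 0.72 over 15 settings). Between 60 and 30 min SPRY2 fell by 0.45 (adjusted p = 0.0299), a call lost in 7 of 15 settings, among them the omission of any array but 60 min replicate 2 (adjusted p from 0.00147 to 0.193). This value was -0.21 without 60 min replicate 1 and -0.69 without 60 min replicate 2.

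SPRY4, which blocks growth factor activation of RAS and RAF, had log2 intensities of 6.50 and 6.27 in untreated arrays, 6.46 and 6.21 at 30 min, and 5.68 and 5.85 at 60 min. Both 60 min arrays lay below the other 4. It fell by 0.62 at 60 min against untreated (SE 0.183, adjusted p = 0.0299), the widest error of the 8 genes. The difference was -0.26 without background correction. It did not pass when control replicate 1 (adjusted p = 0.184), control replicate 2 (0.0652) or 60 min replicate 1 (0.103) was left out, nor with no filter on dim probes (0.0517, range 0.0263 to 0.184 over 14 settings). Between 60 and 30 min SPRY4 fell by 0.57 (adjusted p = 0.0436), which did not hold in 10 of 14 settings (adjusted p from 0.0386 to 0.252), among them the omission of any single array and the replicate number as a block (adjusted p = 0.0501).

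SPRED1 and SPRED2 bind the RAS inactivator neurofibromin and bring it to the membrane. SPRED1 had log2 intensities of 9.84 and 9.82 in untreated arrays, 9.88 and 9.95 at 30 min, and 9.46 and 9.47 at 60 min. It fell by 0.37 ± 0.07 (SE) at 60 min against untreated (adjusted p = 0.00338) and by 0.45 against 30 min (adjusted p = 0.00131). SPRED2 had log2 intensities of 9.29 and 9.26 in untreated arrays, 9.06 and 9.22 at 30 min, and 8.73 and 8.68 at 60 min. The 60 min arrays of both genes were below every other array, and the 2 arrays of each 60 min pair lay close together (SD 0.010 for SPRED1 and 0.0311 for SPRED2). SPRED2 fell by 0.57 ± 0.08 (SE) at 60 min against untreated (adjusted p = 0.000874), and 1.75% of all genes had a lower value. At 30 min its difference was -0.13 (95% interval -0.32 to 0.05, adjusted p = 0.608), with both arrays below both untreated ones. The 60 min calls of SPRED1 and SPRED2 against untreated were kept in all 15 settings.

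TRIB1 had the lowest adjusted p of the 8 genes at 60 min. Its log2 intensities were 10.42 and 10.54 in untreated arrays, 10.54 and 10.44 at 30 min, and 9.84 and 9.82 at 60 min. At 30 min the arrays spread over the same range as the untreated ones, and the 60 min arrays lay below all of these. TRIB1 fell by 0.65 ± 0.07 (SE) at 60 min against untreated (adjusted p = 0.000198), and 0.917% of all genes had a lower value. Against 30 min it fell by 0.66 (adjusted p = 0.00021). Both calls were kept in all 15 settings.

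**Figure D2:**
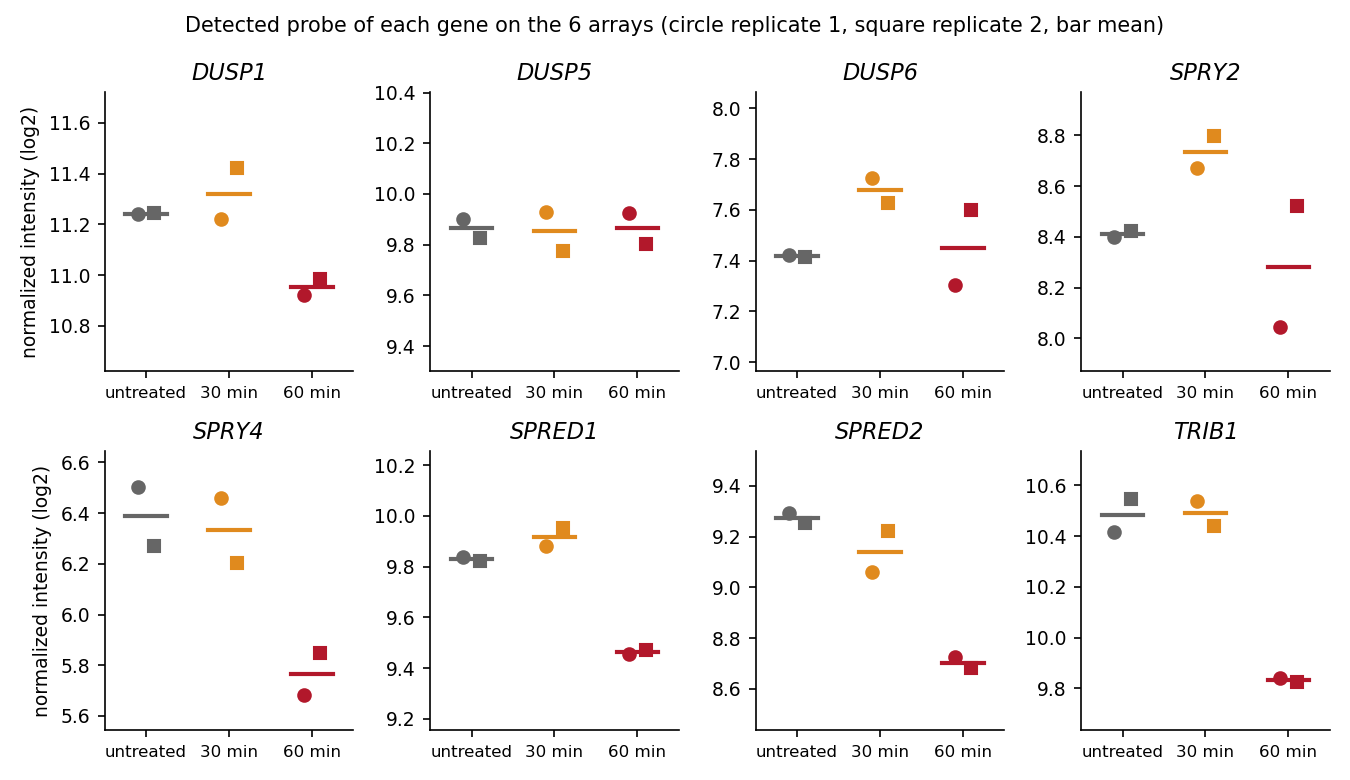
Normalized log2 intensity of the detected probe of each gene on the 6 arrays. Every panel spans the same number of log2 units. For DUSP1, SPRY4, SPRED1, SPRED2 and TRIB1, all called at 60 min, both 60 min arrays lie below all untreated and 30 min arrays. Their calls largely imply this order, and its share over all genes was not counted. The SPRY2 arrays at 60 min lie at 8.04 and 8.52, on either side of the untreated ones.

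**Figure D3:**
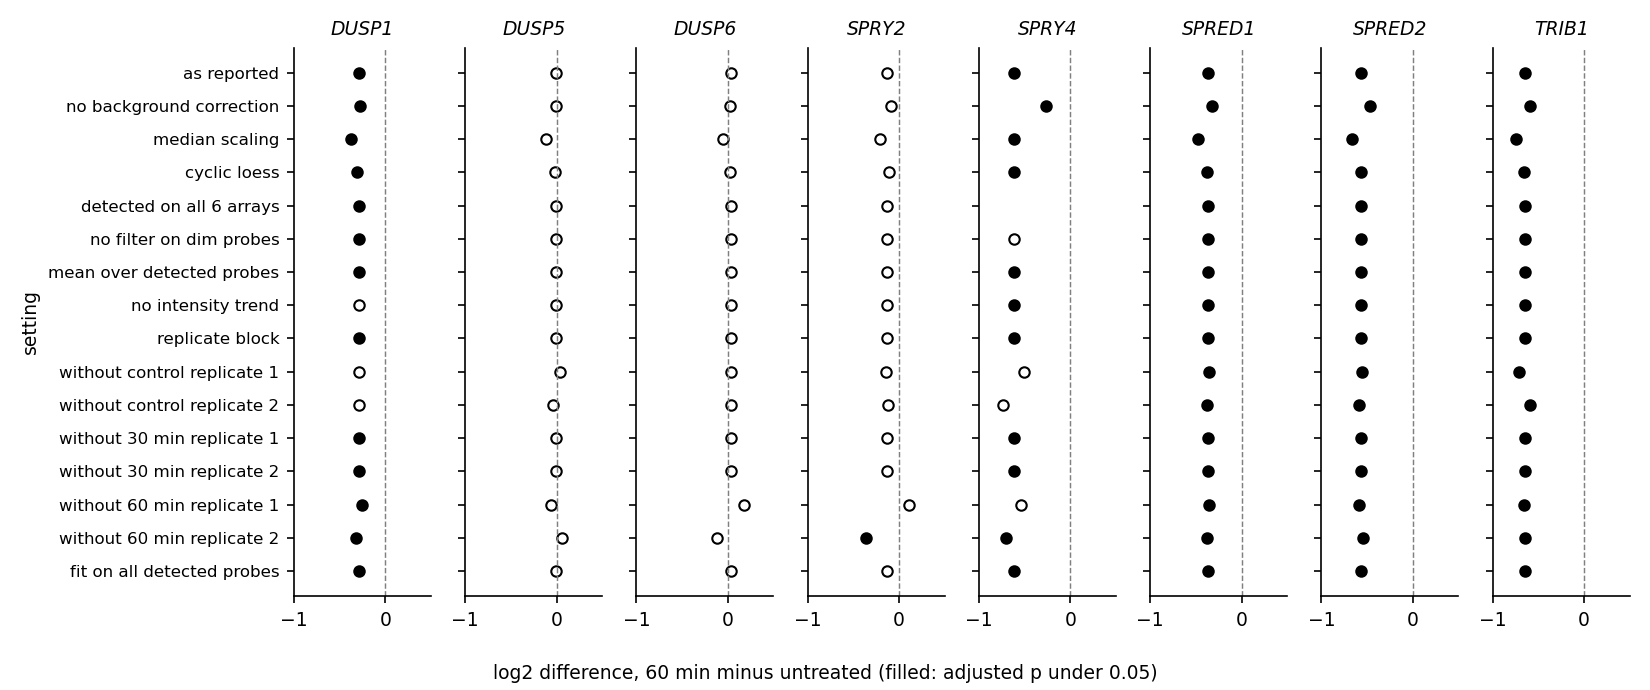
Log2 difference at 60 min minus untreated for each measured gene, as reported and in the other settings, with filled points for an adjusted p under 0.05. SPRED1, SPRED2 and TRIB1 are filled in every row, DUSP1 is open in 3 rows, SPRY4 is open in 4 and missing in 1, and SPRY2 is filled only without 60 min replicate 2.

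At 30 min against untreated, limma called 0 of the 8 genes, and 1 (SPRY2) had an unadjusted p under 0.05. Over all genes 0.327% were called and 1410 had an unadjusted p under 0.05. The 8 differences lay between -0.13 (SPRED2) and 0.32 (SPRY2), with 3 below 0 and a median of 0.04. None was called in any of 15 other settings. The interval for TRIB1 ran from -0.15 to 0.16 and that for DUSP1 from -0.08 to 0.23. For SPRY4 it ran from -0.45 to 0.34.

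Between 60 and 30 min, 6 of the 8 genes fell and 0 rose, beside 11.7% of all genes that fell. These were the 5 genes lower at 60 min against untreated, and SPRY2. The 2 comparisons share the 60 min arrays, so their calls are not independent. DUSP6 differed by -0.23 (95% interval -0.50 to 0.05, adjusted p = 0.231) and DUSP5 by 0.01 (-0.16 to 0.18). Without 30 min replicate 2 fewer of the 8 genes, and fewer of all genes, were called. SPRED2 was then at -0.36 and not called.

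**Figure D4:**
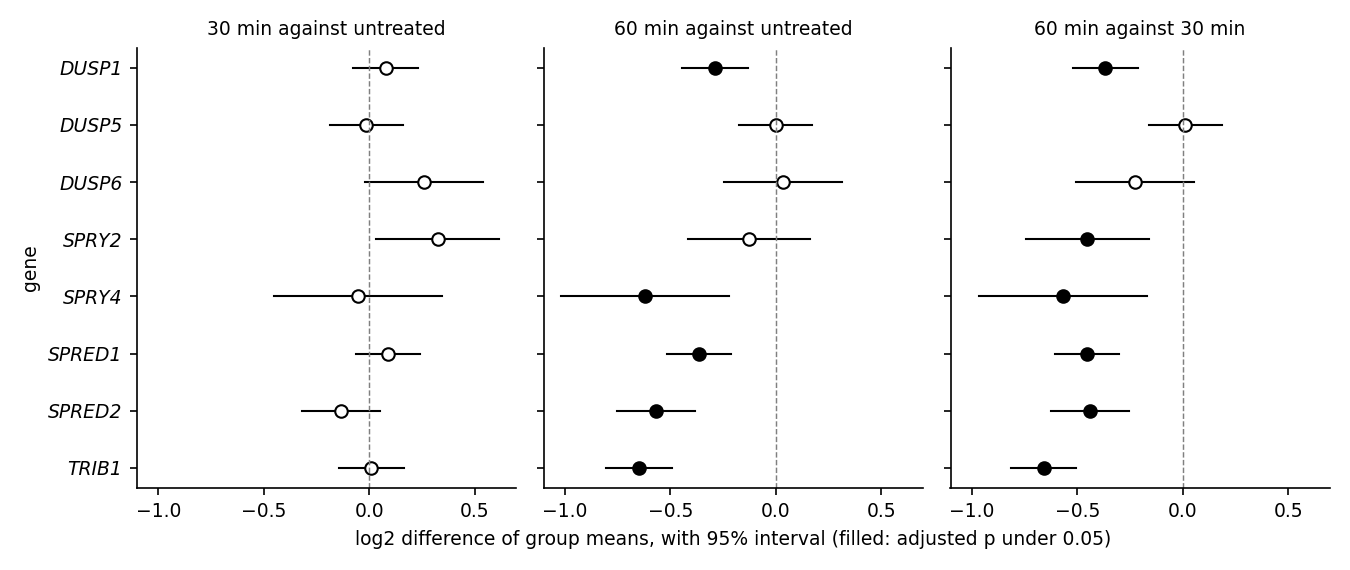
Log2 differences between group means with 95% intervals for the 8 measured genes, in 3 comparisons. Filled points have an adjusted p under 0.05, and there are 0, 5 and 6 of them in the 30 min against untreated, 60 min against untreated and 60 min against 30 min panels.

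Of the 5 genes that fell at 60 min, DUSP1 and SPRED1 had the closest profiles over the 6 arrays, with a Euclidean distance of 0.138 log2 units after each gene's own mean was taken away. SPRED1 and SPRED2 lay at 0.257, SPRED2 and TRIB1 at 0.312. The widest pairs among the 5 were DUSP1 and SPRY4 (0.498) and DUSP1 and TRIB1 (0.449). Both were farther apart than DUSP1 and SPRY2 (0.389). DUSP6 and SPRY2, neither of which passed the test at 60 min against untreated, lay at 0.312 from each other. Among the other genes detected on all 6 arrays, the nearest to TRIB1 were UBE2Q1 (0.0733) and CHMP7 (0.0979), and the nearest to SPRED2 were RAB21 (0.0622) and PANX1 (0.0643). DSN1 (0.0608) and GPBP1 (0.0623) lay nearest to SPRED1. TCF19 (0.0528) and USP45 (0.0652) lay nearest to DUSP1, and ZNF764 (0.142) and ATP6V1C1 (0.150) to SPRY4. These distances describe 6 arrays, with 11118 genes searched for each member (11119 for SPRY4), so close matches are easily found.

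The other genes of the pathway were taken from lists, each described by its counts at 60 min against untreated, beside the 12.3% of all genes that fell and the 10.5% that rose. Of 13 measured feedback genes outside the 9, 4 fell and 0 rose, with a median log2 difference of -0.001. ERRFI1, an inhibitor of the EGF receptor, fell by 0.44 (adjusted p = 0.00136), and SPRY1, another Sprouty gene, by 0.41 (adjusted p = 0.00384). CBL, a ubiquitin ligase for activated receptors, fell by 0.39 (adjusted p = 0.00357). TRIB2, a relative of TRIB1, fell by 0.32 (adjusted p = 0.00673), but not once control replicate 2 was left out (0.0685, range 0.00391 to 0.0685 over 14 settings). The second detected probes of SPRY1 and CBL were at -0.32 and -0.31.

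Of 16 other DUSP genes, 4 fell and 1 rose, with a median of -0.10. DUSP11, which acts on RNA, fell by 0.32 (adjusted p = 0.00494), DUSP14 by 0.28 (adjusted p = 0.00603), DUSP3 by 0.27 (adjusted p = 0.00725) and DUSP12 by 0.22 (adjusted p = 0.0296). DUSP23 rose by 0.49 (adjusted p = 0.00999). All 5 are atypical members without the MAP kinase binding domain. Fewer of the 16, and fewer of all genes, were called without control replicate 1 or control replicate 2. The median was then -0.10 and -0.15. With no intensity trend 1 fell and 0 rose, beside 863 and 710 of all 12547 genes. With median scaling 2 fell and 1 rose, beside 1250 and 404 of all genes. DUSP11 was not called without control replicate 1 (highest adjusted p over 14 settings 0.0607) and DUSP14 not without control replicate 2 or with no intensity trend (0.0774). DUSP3 was lost without either control array, with median scaling and with no intensity trend (0.0595). DUSP23 was lost without control replicate 2 or 60 min replicate 2 and with no intensity trend (0.0907). DUSP12 was lost without any one control or 60 min array, with median scaling and with no intensity trend (0.175).

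In the kinase relays themselves the shares called were near that of all genes, of which 22.9% were called in either direction. Of 15 measured genes of the RAS and ERK cascade, 2 fell and 1 rose, with a median of -0.10. GRB2, the adaptor that links receptors to RAS activation, fell by 0.51 (adjusted p = 0.000642), with -0.37 on its other detected probe. HRAS rose by 0.26 (adjusted p = 0.0161), a call lost in 5 of 14 settings (highest adjusted p 0.456), among them those without control replicate 1, control replicate 2 or 60 min replicate 2. RPS6KA3, an ERK-activated kinase, was called at -0.23 (adjusted p = 0.0449). That call was lost in 10 of 14 settings (highest adjusted p 0.265), including the omission of any array, and its other detected probes stood at 0.16 and -0.82.

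In the p38 and JNK cascades 3 of 17 measured genes fell and 1 rose, with a median of 0.03. MAPKAPK3, a kinase activated by p38, rose by 0.35 (adjusted p = 0.00093). MAP3K11 fell by 0.44 (adjusted p = 0.00249). MAP2K4, an activator of JNK, fell by 0.27 (adjusted p = 0.00531), although control replicate 2 was needed for the call (0.0562 without it, range 0.00421 to 0.0562). MAP2K3, an activator of p38, was called at -0.19 (adjusted p = 0.0389), a call lost in 9 of 14 settings (highest adjusted p 0.772), including the omission of any array. Its other detected probes stood at -0.03 and 0.05.

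Downstream of ERK, the transcription factor genes and early targets that were called were mostly lower. Not called were 6 of the measured transcription factors and 11 of the early targets. Of 10 measured transcription factors of the pathway, 4 fell and 0 rose, with a median of -0.24. CIC, a repressor that ERK inactivates, fell by 0.51 (adjusted p = 0.000632) and ETS2 by 0.48 (adjusted p = 0.00299). ELK4 and SRF, which act together at the CArG box, fell by 0.59 (adjusted p = 0.00604) and 0.23 (adjusted p = 0.0206). ELK4 was between -0.66 and -0.34 over 14 settings and was not called without control replicate 2. In that setting fewer of the factors were called as lower, and a factor was called as higher. Fewer of all genes were called there too. The call of SRF was lost in 5 of 14 settings (highest adjusted p 0.132), with control replicate 1, control replicate 2 or 60 min replicate 2 left out among them. Of 24 measured early targets of ERK, 12 fell and 1 rose, with a median of -0.24. Fewer early targets, and fewer of all genes, were called as lower without control replicate 1, control replicate 2 or 60 min replicate 2. The median was then -0.26, -0.21 and -0.17. With no intensity trend 6 fell, beside 863 of all 12547 genes. FOSB fell by 0.99 (adjusted p = 0.000394), SGK1 by 0.65 (adjusted p = 0.000379), MYC by 0.53 (adjusted p = 0.000144), NR4A2 by 0.65 (adjusted p = 0.00694) and IER5 by 0.39 (adjusted p = 0.00128). The change of FOSB lay between -1.03 and -0.55 over 14 settings, and the second NR4A2 probe stood at -0.05. The NR4A2 call was lost without control replicate 2 and with the mean over its probes (highest adjusted p 0.185). IER3 was the one that rose, by 0.23 (adjusted p = 0.0315). The naming rule did not select IER3, which was chosen after its value was seen. Under median scaling 12 of the 24 fell and 0 rose (1250 and 404 of all 12547 genes), so IER3 was not called there. It was also not called with no intensity trend, nor when either control array or 60 min replicate 1 was left out. None of the genes in these lists was called at 30 min against untreated.

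Among 5 proteins tied to TRIB1, the transcription factor genes CEBPB and CEBPA fell by 0.37 (adjusted p = 0.0019) and 0.25 (adjusted p = 0.0198), and MLXIPL rose by 0.38 (adjusted p = 0.0139). The last 2 calls were lost in 4 and 3 of 14 settings (highest adjusted p 0.163 and 0.192), CEBPA without control replicate 1 or 60 min replicate 2 and MLXIPL without either control array. COP1 and DET1, parts of the ubiquitin ligase, did not pass the test.

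**Figure D5:**
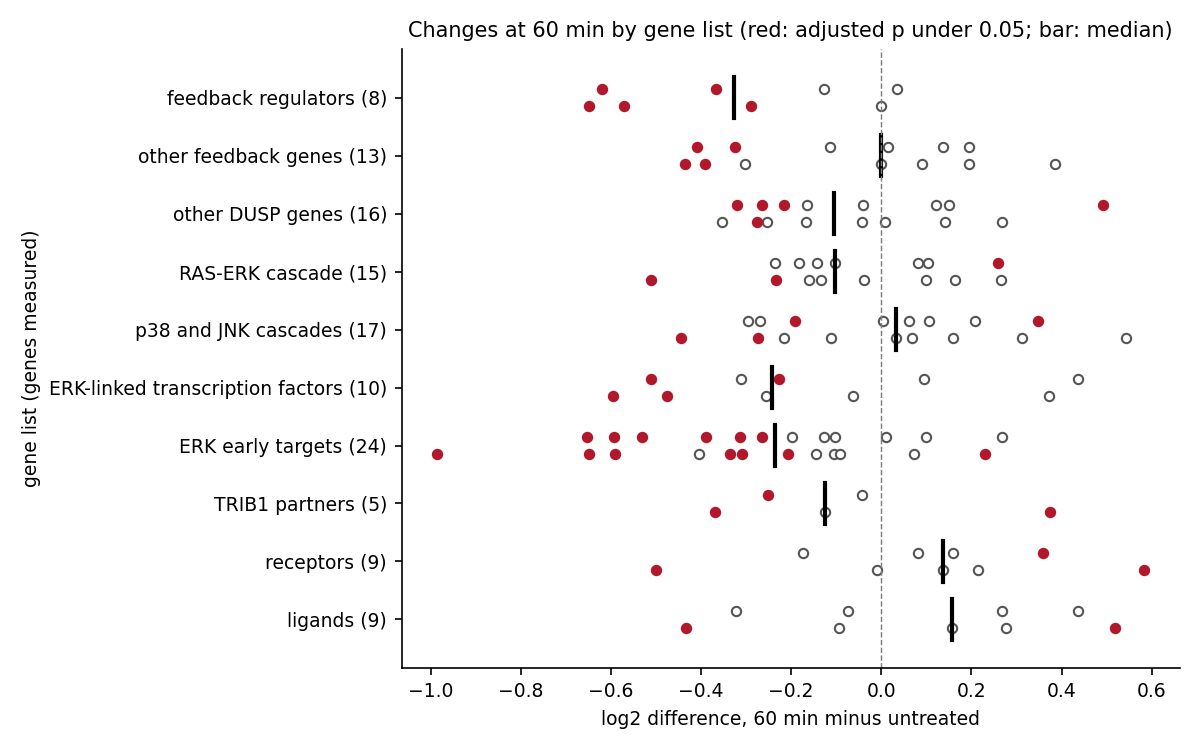
Log2 difference at 60 min minus untreated for each measured gene of the feedback regulators and of 9 other lists. Red points have an adjusted p under 0.05 and bars are medians, which lie at -0.33 for the 8 feedback regulators, -0.24 for ERK early targets and -0.001 for the other feedback genes.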

How the data were processed

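Transcripts of HEK293 cells were measured on Illumina bead arrays from total RNA amplified with an oligo(dT) primer, per the labels' protocols. The deposited table holds the intensity of 47323 probes per array, not normalized, with a detection p-value beside each, per the file headers. The authors' log2 values in the deposited series table differed by at most 5e-07 from the quantile normalized log2 intensities with no background correction. The submitters' processing notes name GenomeStudio 2011.1 and R 2.15.3.

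Intensities were background corrected with limma's neqc (normexp with offset 16, its negative controls estimated from the detection p-values) and quantile normalized. Probes detected at p under 0.05 on at least 2 arrays were kept, 22377 in all, and each of 12547 genes was represented by its brightest detected probe. Symbols came from the platform annotation, updated to RefSeq names, and 30113 probes had 1 symbol, 8 several and 17202 none here. All 6 arrays were fitted with limma 3.58.1 in R 4.3.3, with group means, an intensity trend (prior of 8.91 degrees of freedom beside 3 residual) and Benjamini-Hochberg adjustment over all genes. The code of the fit was tried on simulated data with independent noise. That cannot show how the fit performs if the arrays of a group are technical repeats. Precision is limited by having 6 arrays, and the SE of a log2 difference at 60 min against control had a median of 0.0919. Normalized values compress large changes, and background correction moves dim probes most.

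The 9 genes and the 9 pathway lists (150 genes) were chosen with earlier results of these data known, and counts refer to the listed genes that were measured. The text names all 9 genes, up to 5 genes per list with the lowest adjusted p at 60 min among those called, and the 2 nearest profiles of each member called at 60 min. Alternatives were background correction, normalization, filter, probe choice, variance model, replicate block, omission of each array, and, added after seeing the data, a fit on all detected probes. For the named genes of the lists, that last fit was not run.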

Additional observations from a re-analysis of the deposited data

Results flagged for a closer look

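The change at 60 min differed from that at 30 min, tested as the contrast of 60 against 30 min in limma, for 6 of the 8 measured genes, all lower, beside 11.7% of all genes that were lower. The calls of SPRY4 and SPRY2 among them were lost in 10 of 14 and 7 of 15 settings. On the log2 scale the change at 60 min minus the change at 30 min was -0.66 for TRIB1, -0.57 for SPRY4, -0.45 for SPRED1, -0.45 for SPRY2, -0.44 for SPRED2 and -0.37 for DUSP1. For each of the 6 genes, and for DUSP6, which was not called, both 60 min arrays lay below both 30 min arrays. For the called genes this order is largely implied by the call and adds no support to it. How many of all genes had this order was not counted. With 2 arrays per group, no array could be tested as standing apart from the others of its group.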

How the results depend on the processing

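Of the 5 genes called at 60 min against control, TRIB1, SPRED1 and SPRED2 kept their call in all 15 alternatives. The number of members called was 3 to 6 when single arrays were left out (5 with all arrays); it was 3 without either control array. For 60 against 30 min it was 3 to 5 (6 with all arrays). At 30 min it was 0 throughout. With the replicate block 5 members were called at 60 min against control and 5 against 30 min, where SPRY4 was lost. The replicate differences of the 3 groups were nearly uncorrelated across genes (0.0377, 0.0763 and -0.056). This cannot decide whether same-numbered arrays were paired, because a shared effect on few genes would not show.

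Over all genes, 2871 were called at 60 min against control, 1654 with median scaling (404 higher, 1250 lower) and 1573 without the intensity trend, and 1239 to 2768 without single arrays. At 30 min 41 were called, 84 with median scaling and 13 without the trend, and 11 to 164 without single arrays. For 60 against 30 min 2842 were called, 1664 with median scaling (443 higher, 1221 lower) and 1551 without the trend, and 1322 to 2564 without single arrays. The cause was not tested.

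Signs turned only for differences that were not called. With median scaling, which moved the median of all genes by under 0.1, DUSP6 was at -0.049 at 60 min against control and DUSP5 at -0.11 at 60 against 30 min, where cyclic loess gave DUSP5 -0.0011. When single arrays were left out, the 60 min differences ranged from -0.064 to 0.061 for DUSP5, from -0.11 to 0.18 for DUSP6 and from -0.37 to 0.11 for SPRY2. The 30 min differences ranged from -0.023 to 0.18 for DUSP1, from -0.089 to 0.063 for DUSP5, from -0.18 to 0.073 for SPRY4 and from -0.054 to 0.073 for TRIB1. DUSP5 at 60 against 30 min ranged from -0.064 to 0.088.

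SPRY4 could not be tested with probes detected on all 6 arrays. The genes near background, DUSP4 and SPRY4, are those that signal over background limits most. Without background correction the difference of DUSP6 at 30 min against control was 0.17 instead of 0.26. That of SPRY2 at 60 min against control was -0.09 instead of -0.13.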

Other observations

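The receptor and ligand genes upstream of the pathway are given beside the 10.5% of all genes that rose and the 12.3% that fell at 60 min against untreated. Of 9 measured growth factor receptor genes, 2 rose and 1 fell, with a median log2 difference of 0.14. FGFR3, a receptor for fibroblast growth factors, rose by 0.58 (adjusted p = 0.000181), with 0.16 on its other detected probe. EGFR, the EGF receptor gene, was called at 0.36 (adjusted p = 0.0296), while its other detected probe stood at -0.17. IGF1R, a receptor for insulin-like growth factors, was called at -0.50 (adjusted p = 0.0326). The calls of EGFR and IGF1R were lost in 7 and 6 of 14 settings, among them the omission of either control array or either 60 min array, with highest adjusted p-values of 0.639 and 0.138. Fewer receptor genes, and fewer of all genes, were called without any one of these 4 arrays. The FGFR3 call was lost with the mean over its probes (adjusted p = 0.0531, range 0.000186 to 0.0531).

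Of 9 measured ligand genes, 1 fell and 1 rose, with a median of 0.16. HBEGF, an EGF receptor ligand whose gene is itself induced by ERK, fell by 0.43 (adjusted p = 0.00343) and kept its call in 14 of 14 settings. Its log2 difference at 30 min was 0.004. EGF was called at 0.52 (adjusted p = 0.0466), a call lost in 9 of 14 settings, including the omission of any array, with a highest adjusted p of 0.209.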
